A study of Mus musculus with 16 samples.

Results

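The 10 genes described here are grouped as effector genes of fetal testis Sertoli cells: secreted signals, enzymes, receptors and other proteins. Values of whole gonads do not show which cells express them. The genes were followed through the mouse gonad with and without Nanos3: Ptgds, Cst9, Aard, Mro, Tesc, Vnn1, Erbb4, Mmd2, Fgf9 and Fgf18. They were chosen by symbol, as every probe annotated to 1 of these names. The 10 genes had 15 probes, among 19532 genes with a probe of a single symbol, and each of the 10 had at least 1 probe among the 16581 genes that passed the filter on weak signal. Whole gonads came from male knockout (Nanos3-/-), male heterozygous (Nanos3+/-), female knockout and female heterozygous embryos, at embryonic days (E) 12.5, 13.5, 14.5 and 15.5. Each combination has 1 sample, so each of the 4 groups holds 4 samples, and the heterozygous embryos set against the knockouts also carry 1 mutant Nanos3 allele. By its title, each sample combines replicates 1 and 2, so the p-values measure the spread between embryonic days and not between embryos. The strain is not given in the sources used here.

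Sertoli cells are the supporting cells that surround the germ cells in the testis cords. In the XY gonad SRY switches on SOX9, and SOX9 activity is then sustained by FGF9 signalling through FGFR2 and by prostaglandin D2, while the same precursors in the XX gonad become pre-granulosa cells. NANOS3 binds RNA and keeps primordial germ cells alive, so gonads of knockout embryos are made up almost wholly of somatic cells.

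Values are given as relative signal: the deposited ratio of a probe to its typical level over the samples, after arrays were scaled to the same 75th percentile. A value of 1 is thus that probe's own typical level, and levels of different genes cannot be set against each other. Sex labels were checked on 6 Sertoli markers other than the 10 genes (Sox9, Amh, Dhh, Sox8, Inhbb and Cldn11): all 6 were higher in male gonads in both genotypes, although the free-text description of the female samples calls them male. All 8 germ cell markers tested were lower in male knockouts than in male heterozygotes and 7 of 8 in females. The Nanos3 probe read 0.613 to 1.02 in male knockouts, against 1.89 to 11.3 in male heterozygotes. In females it read 0.708 to 1.11 in knockouts and 0.568 to 2.04 in heterozygotes, which overlap.

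The main contrast among the 10 genes was between the sexes. In knockout gonads, 7 of the 10 (Ptgds, Cst9, Aard, Mro, Tesc, Vnn1 and Mmd2) were higher in males and none was lower, where 8.99% of all genes were higher and 18% were called in either direction. In heterozygous gonads the same 7 were higher and none lower, where 11.7% of all genes were higher and 23.8% were called in either direction. A gene was called at an adjusted p under 0.05 in limma, with Benjamini-Hochberg adjustment over all 16581 genes. The median male minus female difference of the 10 genes was 3.78 on the log2 scale in knockouts, where that of all genes was 0.03, and 3.49 in heterozygotes, where that of all genes was 0.04. In whole gonads, fewer cells of a type and less RNA per cell cannot be told apart. All 4 male values lay above all 4 female values for 8 of the 10 genes in knockouts (these 7 and Fgf9), where this held for 9.9% of all genes, and for the same 7 in heterozygotes, where it held for 8.08%.

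**Figure D1:**
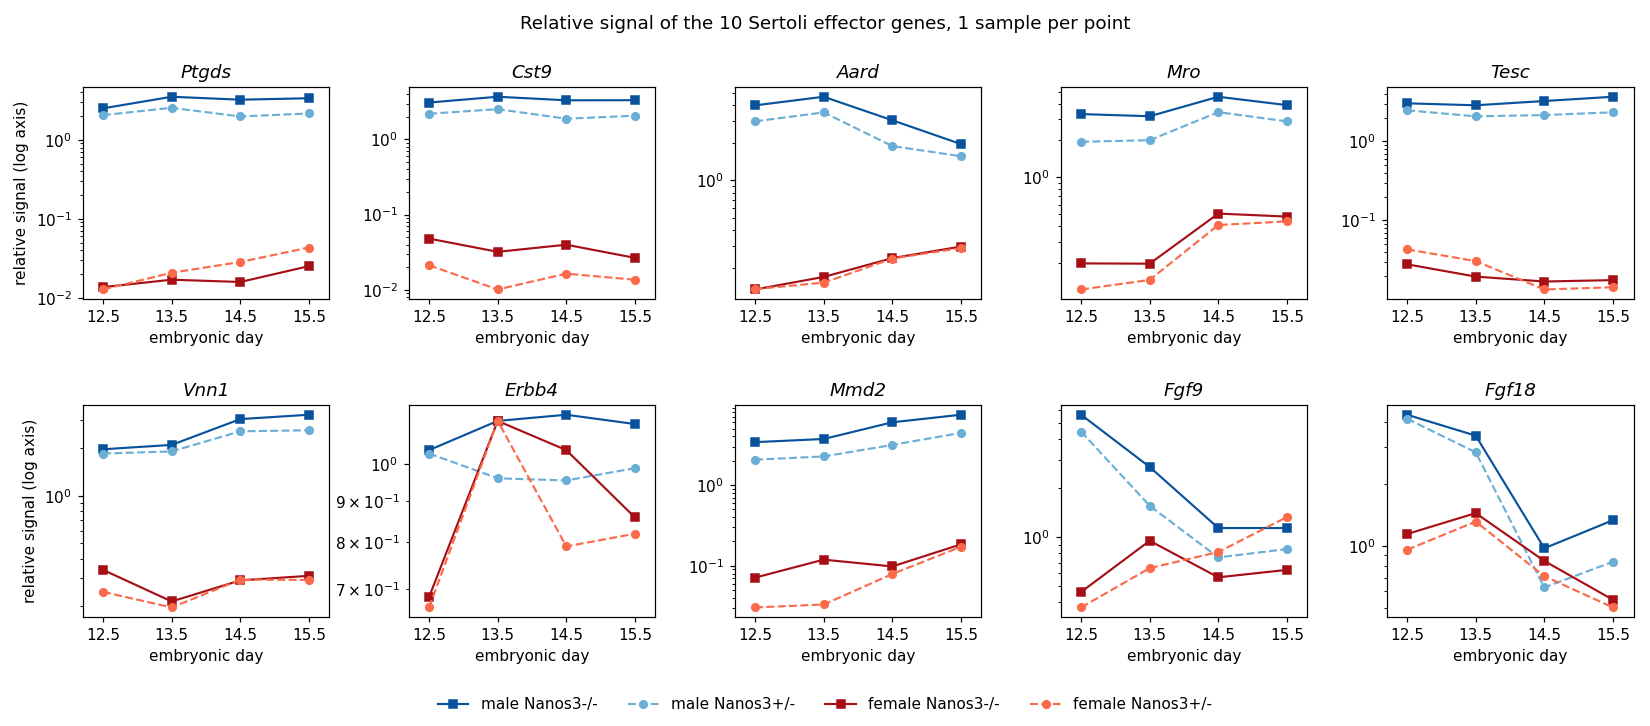
Relative signal (log axis, each panel with its own range) of the 10 genes against embryonic day, 1 sample per point, with male knockout, male heterozygous, female knockout and female heterozygous gonads as separate lines. Ptgds, Cst9 and Tesc stay near or below 0.05 in every female sample and above 1.8 in every male sample, whereas Fgf9 and Fgf18 are furthest above the female values at E12.5 and nearer to them at E14.5.

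Ptgds, Cst9 and Tesc had the widest separation between the sexes of the 10 genes. Their female values, 0.0101 to 0.0480, lay at the bottom of the scale, where the lowest deposited ratio of any probe is 0.01. The fold sizes of these 3 genes thus rest on very small female values. Ptgds encodes the lipocalin-type prostaglandin D synthase, which makes prostaglandin D2. Its relative signal, in the order of the 4 days, was 2.51, 3.52, 3.23 and 3.37 in male knockouts, against 0.0136, 0.0169, 0.0158 and 0.0251 in female knockouts. In heterozygotes it was 2.06, 2.55, 1.98 and 2.16 in males, against 0.0127, 0.0207, 0.0283 and 0.0432 in females. Every male sample was thus far above every female sample on each day. The fitted difference was 180-fold in knockouts (log2 7.50 ± 1.12 SE, adjusted p = 0.00166) and 91.4-fold in heterozygotes (6.51 ± 1.12, adjusted p = 0.00383). Without E14.5 the heterozygous difference was 6.64 with an adjusted p of 0.0677, and without E15.5 it was 6.80 with an adjusted p of 0.0647.

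Cst9 encodes testatin, a cystatin-related secreted protein of early Sertoli cells. It read 3.10, 3.70, 3.32 and 3.33 over the 4 days in male knockouts, against 0.0480, 0.0320, 0.0398 and 0.0266 in female knockouts. Male heterozygotes had 2.20, 2.53, 1.89 and 2.07, against 0.0212, 0.0101, 0.0164 and 0.0136 in female heterozygotes. The male values lay in a narrow band and showed no overlap with the female ones. The difference was 94-fold in knockouts (log2 6.55 ± 0.89, adjusted p = 0.000946) and 146-fold in heterozygotes (7.19 ± 0.89, adjusted p = 0.000767). In a fit of the heterozygous samples alone its heterozygous difference was not called (adjusted p = 0.205).

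Tesc encodes tescalcin, a calcium-binding protein of the calcineurin homologous family. It read 3.04, 2.87, 3.25 and 3.68 in male knockouts, against 0.0279, 0.0195, 0.0169 and 0.0176 in female knockouts. Male heterozygotes had 2.48, 2.08, 2.16 and 2.34, against 0.0431, 0.0306, 0.0134 and 0.0143 in female heterozygotes. No male value came near a female one. The difference was 160-fold in knockouts (log2 7.32 ± 1.02, adjusted p = 0.0011) and 101-fold in heterozygotes (6.65 ± 1.02, adjusted p = 0.00216).

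The standard errors of Ptgds, Cst9 and Tesc are wide for a reason that lies in the model. Their mean log2 values were among the lowest of all genes, with at most 0.0362% of genes lower, and there the fitted trend of the variance on the mean set a prior SD of 2.07 to 2.62 for the sex comparison. Their own residual SDs were 0.359 to 0.453. In a fit without that trend, added after the data were seen, the prior SD was 0.29 and the knockout differences of Ptgds, Cst9 and Tesc had SEs of 0.27, 0.24 and 0.29, with adjusted p-values of 1.39e-06, 1.55e-06 and 1.73e-06.

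The promoters of these 3 genes, and of Fgf9 for contrast, are shown because the 3 move together between the sexes and Fgf9 does not follow them. RefSeq promoter windows (build GRCm38.p6, 250 bases before to 50 after the start, written 5′ to 3′ along the gene) were used for 7 of the 10 genes. Ptgds lies at chr2:25469700-25469999 on the minus strand, Cst9 at chr2:148834897-148835196 on the plus strand, Tesc at chr5:118027493-118027792 on the plus strand and Fgf9 at chr14:58072436-58072735 on the plus strand. Capitals mark matches, on either strand, to the SOX motifs AACAAT and AACAAAG, the SF1 motif AAGGTCA or the GATA motif AGATAA.
Ptgds: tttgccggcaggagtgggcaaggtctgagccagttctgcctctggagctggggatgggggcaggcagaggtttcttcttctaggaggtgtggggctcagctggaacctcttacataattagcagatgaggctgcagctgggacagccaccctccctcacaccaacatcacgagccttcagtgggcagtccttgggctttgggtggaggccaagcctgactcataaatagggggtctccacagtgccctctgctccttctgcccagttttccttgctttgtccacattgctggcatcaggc
Cst9: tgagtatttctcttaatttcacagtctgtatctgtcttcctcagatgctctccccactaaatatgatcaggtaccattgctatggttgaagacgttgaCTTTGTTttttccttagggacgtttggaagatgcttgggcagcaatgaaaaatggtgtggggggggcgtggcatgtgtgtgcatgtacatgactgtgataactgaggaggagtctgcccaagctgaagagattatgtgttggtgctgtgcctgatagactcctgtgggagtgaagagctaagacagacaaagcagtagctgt
Tesc: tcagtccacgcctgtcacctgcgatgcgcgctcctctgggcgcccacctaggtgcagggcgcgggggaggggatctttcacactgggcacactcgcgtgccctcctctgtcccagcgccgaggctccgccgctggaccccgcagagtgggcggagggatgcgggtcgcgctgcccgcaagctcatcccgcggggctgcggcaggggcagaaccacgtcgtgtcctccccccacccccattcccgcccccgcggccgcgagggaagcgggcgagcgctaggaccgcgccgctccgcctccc
Fgf9: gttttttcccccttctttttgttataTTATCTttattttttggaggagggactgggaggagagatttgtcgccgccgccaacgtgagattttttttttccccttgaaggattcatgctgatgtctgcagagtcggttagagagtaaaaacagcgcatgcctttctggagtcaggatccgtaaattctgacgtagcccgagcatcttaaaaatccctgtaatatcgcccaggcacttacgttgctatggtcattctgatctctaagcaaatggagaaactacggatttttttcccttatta

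Cst9 held 1 match to AACAAAG, on the opposite strand at positions -152 to -146 from the start, and Fgf9 held 1 match to AGATAA, on the opposite strand at -224 to -219. Erbb4 held 1 match to AACAAT, on the opposite strand at -73 to -68, and the windows of Ptgds, Tesc, Mmd2 and Fgf18 held none of the 4 motifs. No matches overlapped. Among all 32851 windows of this length, AACAAT was found in 10.7%, AACAAAG in 5.85%, AAGGTCA in 4.72% and AGATAA in 11.2%, and at least 1 of them in 27.5%, so 3 of 7 windows with a match is a description of these windows only. The windows differed in base composition: 46% of the bases of Cst9 and 42.7% of those of Fgf9 were G or C, against 74.7% in Tesc and 78.7% in Fgf18.

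**Figure D2:**
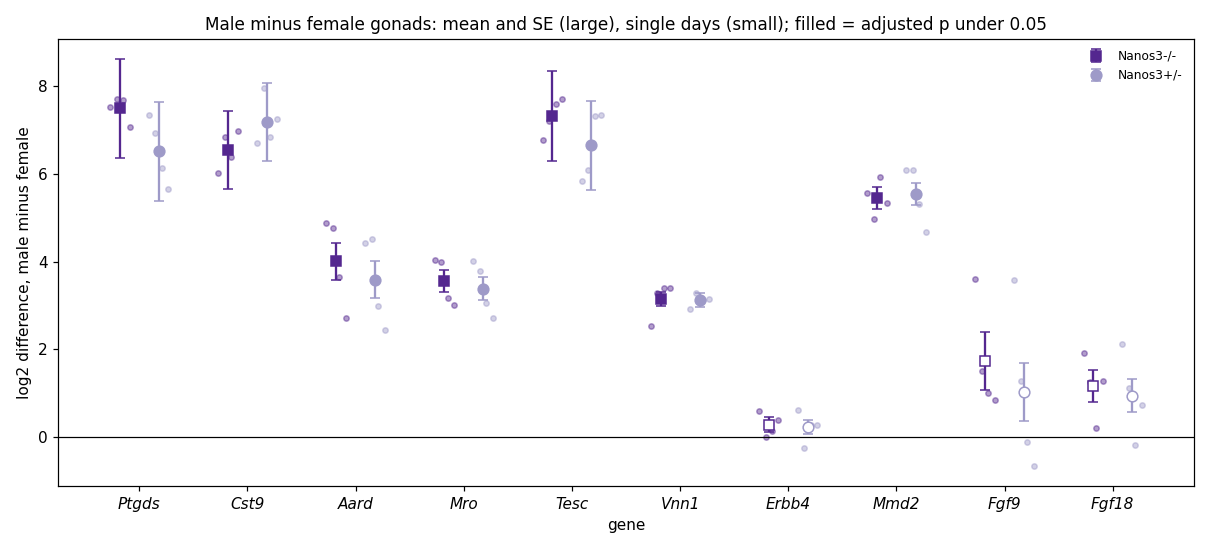
Male minus female log2 difference of each of the 10 genes in Nanos3-/- (squares) and Nanos3+/- (circles) gonads. Large symbols are the fitted difference with its SE, filled where the adjusted p is under 0.05, and small dots are the 4 single days. Ptgds, Cst9 and Tesc lie above 6, Mmd2 above 5, Aard, Mro and Vnn1 between 3.12 and 4.01, and Erbb4, Fgf9 and Fgf18 below 2.

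Mmd2, which encodes a multi-pass membrane protein of the progestin and adipoQ receptor family, read 3.40, 3.72, 5.99 and 7.43 in male knockouts, against 0.0712, 0.119, 0.0980 and 0.184 in female knockouts. In heterozygotes it read 2.06, 2.26, 3.14 and 4.43 in males, against 0.0304, 0.0331, 0.0789 and 0.172 in females. Within each group the latest day was the highest, while the distance between the sexes stayed wide throughout. Males exceeded females 43.8-fold in knockouts (log2 5.45 ± 0.26, adjusted p = 4.08e-06) and 46.7-fold in heterozygotes (5.54 ± 0.26, adjusted p = 4.87e-06).

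Mro encodes maestro, a nucleolar protein named for its male-biased expression in the developing gonad. It read 3.28, 3.15, 4.54 and 3.88 in male knockouts, against 0.199, 0.198, 0.507 and 0.479 in female knockouts, and 1.95, 2.01, 3.40 and 2.86 in male heterozygotes, against 0.122, 0.146, 0.409 and 0.438 in female heterozygotes. In all 4 groups the 2 later days were above the 2 earlier ones. The difference was 11.7-fold in knockouts (log2 3.55 ± 0.25, adjusted p = 2.65e-05) and 10.5-fold in heterozygotes (3.39 ± 0.25, adjusted p = 4.83e-05). The other Mro probe, which followed the first with r = 0.94 over the 16 samples, gave smaller differences of 1.98 and 1.91.

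Aard encodes an alanine- and arginine-rich domain protein. It read 3.97, 4.65, 3.02 and 1.95 in male knockouts, against 0.135, 0.170, 0.240 and 0.297 in female knockouts, and 2.96, 3.49, 1.88 and 1.56 in male heterozygotes, against 0.136, 0.153, 0.238 and 0.289 in female heterozygotes. The sexes did not overlap but drew closer with time, since males were lowest and females highest at E15.5. The mean difference was 16.1-fold in knockouts (log2 4.01 ± 0.43, adjusted p = 0.000245) and 12-fold in heterozygotes (3.59 ± 0.43, adjusted p = 0.000619).

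Vnn1 encodes vanin 1, a membrane-anchored pantetheinase that yields cysteamine. It read 1.97, 2.10, 3.06 and 3.26 in male knockouts, against 0.339, 0.214, 0.291 and 0.311 in female knockouts, and 1.85, 1.91, 2.56 and 2.60 in male heterozygotes, against 0.246, 0.196, 0.294 and 0.293 in female heterozygotes. Males were higher on every day and by nearly the same factor in both genotypes: 8.91-fold in knockouts (log2 3.15 ± 0.16, adjusted p = 5.91e-06) and 8.67-fold in heterozygotes (3.12 ± 0.16, adjusted p = 7.38e-06).

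Erbb4, a receptor tyrosine kinase for neuregulins, was the member with no call in any of the 11 comparisons. Only 1 of its 4 probes passed the filter, and the other 3 were at the detection limit in 14 or 15 of the 16 samples. The probe that passed read 1.04, 1.13, 1.15 and 1.12 in male knockouts, against 0.685, 1.13, 1.04 and 0.859 in female knockouts, and 1.03, 0.960, 0.954 and 0.988 in male heterozygotes, against 0.665, 1.13, 0.791 and 0.820 in female heterozygotes. The male and female values overlapped at E13.5, where the female samples were as high as or higher than the male ones. The male minus female difference was 0.28 in knockouts (95% interval -0.09 to 0.66, adjusted p = 0.292) and 0.23 in heterozygotes (-0.14 to 0.61, adjusted p = 0.353), intervals that leave out a difference of the size seen for the 7 genes above.

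The fibroblast growth factors Fgf9 and Fgf18 had their largest male excess at E12.5. On later days it was smaller or absent, and for Fgf18 it did not shrink steadily. FGF9 is the ligand that XY mouse gonads need to keep Sertoli differentiation going. Its gene read 5.65, 2.70, 1.14 and 1.14 over the days in male knockouts, against 0.462, 0.952, 0.568 and 0.631 in female knockouts. Male heterozygotes had 4.45, 1.56, 0.752 and 0.847, against 0.371, 0.647, 0.812 and 1.33 in female heterozygotes. Both male groups were highest at E12.5, and in heterozygotes the females were above the males at E14.5 and E15.5. The male minus female difference by day was 3.61, 1.51, 1.0 and 0.85 on the log2 scale in knockouts and 3.58, 1.27, -0.11 and -0.65 in heterozygotes. Averaged over the days it was not called in knockouts (1.74 ± 0.66, adjusted p = 0.104) or in heterozygotes (1.02 ± 0.66, adjusted p = 0.298).

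The decline of Fgf9 in males was tested as a slope over embryonic day within each group. It fell by 0.82 per day on the log2 scale in male knockouts (SE 0.19, adjusted p = 0.0292) and by 0.82 in male heterozygotes (SE 0.19, adjusted p = 0.0135). The slope was 0.06 in female knockouts (adjusted p = 0.931) and 0.58 in female heterozygotes (adjusted p = 0.0722). In heterozygotes the male minus female difference fell by 1.41 per day (SE 0.27, adjusted p = 0.0181), and in knockouts its slope was -0.88 (SE 0.27, adjusted p = 0.19). These calls rest on the whole series of days: without E12.5 the slopes were -0.62 in male knockouts and -0.44 in male heterozygotes, with adjusted p-values of 0.443 and 0.351, and of the 4 days only E13.5 could be left out with these 3 calls kept. Calls over all genes fell as well: in male knockouts from 965 to 11, 45 and 0 without E12.5, E14.5 and E15.5. In male heterozygotes they fell from 2736 to 381, 908 and 261, and for the heterozygous sex difference from 555 to 5, 0 and 0. The loss of calls is thus not particular to Fgf9. The other Fgf9 probe followed the first with r = 0.84 over the 16 samples. With all days its slopes were -0.37 in male knockouts and -0.49 in male heterozygotes, with adjusted p-values of 0.237 and 0.0882. Its heterozygous slope of the male minus female difference was -0.93 (adjusted p = 0.088), so none of the 3 calls was made on that probe.

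Fgf18 encodes a ligand of the FGF8 subfamily. It read 4.32, 3.42, 0.972 and 1.33 in male knockouts, against 1.14, 1.44, 0.844 and 0.547 in female knockouts, and 4.13, 2.84, 0.628 and 0.836 in male heterozygotes, against 0.956, 1.31, 0.712 and 0.502 in female heterozygotes. Male samples stood apart from female ones at E12.5 and E13.5 and lay near them at E14.5. The male minus female difference by day was 1.92, 1.25, 0.20 and 1.29 in knockouts and 2.11, 1.12, -0.18 and 0.74 in heterozygotes. It was thus wider at E15.5 than at E14.5. The slope of that difference was not called in knockouts (-0.29, limma, adjusted p = 0.808) or in heterozygotes (-0.54, adjusted p = 0.388). The slope of Fgf18 within a group was -0.91 per day in male heterozygotes (SE 0.23, adjusted p = 0.022), -0.69 in male knockouts (SE 0.23, adjusted p = 0.109), -0.40 in female knockouts (adjusted p = 0.403) and -0.37 in female heterozygotes (adjusted p = 0.351). Its mean male minus female difference missed the threshold in knockouts (1.16 ± 0.37, adjusted p = 0.0594) and in heterozygotes (0.95 ± 0.37, adjusted p = 0.0961). The male heterozygous slope was -0.88 without E12.5, -0.79 without E14.5 and -1.36 without E15.5, with adjusted p-values of 0.263, 0.064 and 0.115. Calls over all genes for that slope also fell when these days were left out, as given above.

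**Figure D3:**
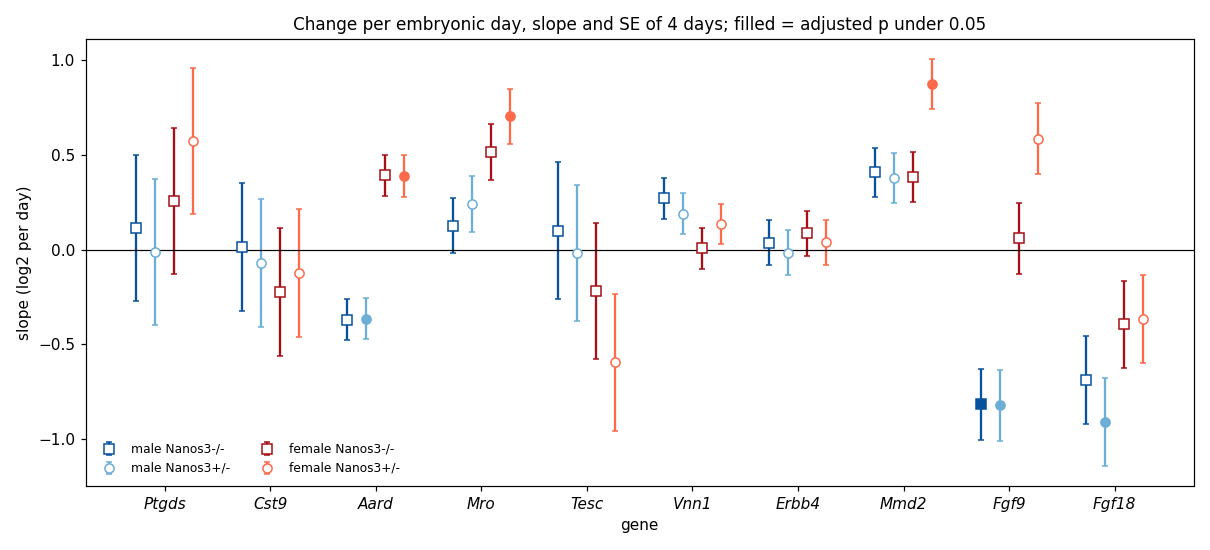
Slope per embryonic day (log2, with its SE, over the 4 days) of each of the 10 genes in male Nanos3-/-, male Nanos3+/-, female Nanos3-/- and female Nanos3+/- gonads, filled where the adjusted p is under 0.05. Fgf9 and Fgf18 lie well below 0 in both male groups, Aard is negative in males and positive in females, and Mmd2 and Mro are positive in all 4 groups.

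Over the 10 genes, slopes were called lower for 1 gene in male knockouts (Fgf9), where 2.53% of all genes were. In male heterozygotes 3 were called lower (Aard, Fgf9 and Fgf18), where 5.82% of all genes were. None was called higher in male knockouts or male heterozygotes, where 3.29% and 10.7% of all genes were. In female knockouts no slope was called (2.33% of all genes were higher), by limma, where 3 (Aard, Mro and Mmd2) had an unadjusted p under 0.05. With each probe tested on its own, the other Mro probe was called higher in female knockouts (slope 0.76, limma, adjusted p = 0.00923). In female heterozygotes 3 were called higher (Aard, Mro and Mmd2; 6.44% of all genes). Aard fell by 0.36 per day in male heterozygotes (SE 0.11, adjusted p = 0.0436) and rose by 0.39 in female heterozygotes (SE 0.11, adjusted p = 0.0471), and the slope of its male minus female difference was -0.76 in knockouts (SE 0.16, adjusted p = 0.0481) and -0.75 in heterozygotes (SE 0.16, adjusted p = 0.0262). That slope was called lower for 1 of the 10 genes in knockouts, where 0.675% of all genes were, and for 2 in heterozygotes, where 1.12% were. Each of these Aard calls was lost when any 1 day was left out, with adjusted p-values of 0.0527 to 0.742. For the slope of the difference, omitting E12.5 left 0 genes called in knockouts and 5 in heterozygotes. Omitting E14.5, or else E15.5, left 0 in both genotypes. Where no gene at all was called, the loss says nothing about Aard itself. Without E13.5, 160 genes were called in knockouts and 336 in heterozygotes, and Aard was not among them. The slopes within heterozygotes kept 261 to 2821 calls over all genes in males and 47 to 1289 in females.

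In female heterozygotes some genes of the male-high set rose over the days at levels far below the male ones. Mmd2 rose by 0.88 per day there (SE 0.13, adjusted p = 0.00322), a 5.66-fold difference between E15.5 and E12.5, and Mro rose by 0.70 (SE 0.15, adjusted p = 0.0138). The Mmd2 call was kept when E13.5 was left out, and the Mro call when E13.5 or E14.5 was. Ptgds and Tesc went opposite ways: their slopes were 0.57 and -0.60, with adjusted p-values of 0.382 and 0.328. In the fit without the variance trend those slopes had SEs of 0.10 and 0.11 and adjusted p-values of 0.00518 and 0.00779. Ptgds and Tesc read at most 0.0432 and 0.0431 in female heterozygotes, so both slopes lie at the bottom of the scale.

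The effect of the Nanos3 knockout was tested within each sex with the heterozygote of the same day as its pair. In males all 10 genes were higher in the knockout than in the heterozygote on each of the 4 days after scaling, 40 of 40 pairs, and 37 of the 40 were also above that day's median over all genes. The pairs of a day come from the same arrays and are not separate observations. The share of all genes that were higher on every day is not given here. In the ratios as deposited 35 of the 40 were higher, and the other 5 pairs were of Aard, Vnn1 and Erbb4. The median effect of the 10 genes was 0.51 on the log2 scale, where that of all genes was 0.12. Of the 10, 4 were called higher (Mmd2, Mro, Aard and Fgf18) and none lower, where 21.7% of all genes were called higher and 34.3% in either direction. In females 2 were called higher (Mmd2 and Mro), where 20.9% of all genes were higher and 33.8% were called in either direction. The female median was 0.15, against 0.11 for all genes, and 30 of 40 pairs were higher in the knockout, 27 of them above that day's median over all genes. In the ratios as deposited 23 of the 40 female pairs were higher.

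**Figure D4:**
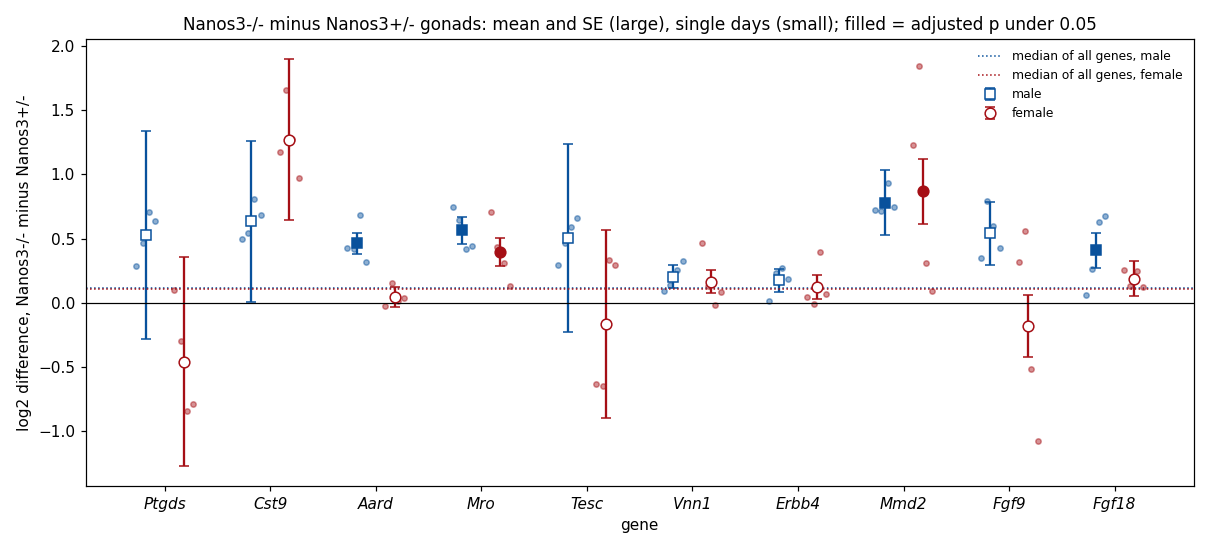
Nanos3-/- minus Nanos3+/- log2 difference of each of the 10 genes in male (squares) and female (circles) gonads. Large symbols are the fitted difference with its SE, filled where the adjusted p is under 0.05, small dots are the 4 single days, and dotted lines are the medians of all genes at 0.12 and 0.11. Every male dot is above 0, whereas female dots of Ptgds, Tesc, Fgf9, Aard, Vnn1 and Erbb4 fall on both sides of it.

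Mmd2 had the largest fitted effect among the male calls, 1.72-fold (log2 0.78 ± 0.25, adjusted p = 0.0433), with single days of 0.72, 0.72, 0.93 and 0.75. In females it was 1.83-fold higher in the knockout (0.87 ± 0.25, adjusted p = 0.0296), and its days were uneven: 1.23 and 1.84 at E12.5 and E13.5 but 0.31 and 0.09 at E14.5 and E15.5. Mro was 1.48-fold higher in male knockouts (0.56 ± 0.11, adjusted p = 0.00629) and 1.32-fold higher in female knockouts (0.40 ± 0.11, adjusted p = 0.022). Aard was 1.38-fold higher in male knockouts (0.46 ± 0.08, adjusted p = 0.00454), while its female effect was 0.05 ± 0.08 (adjusted p = 0.695). Fgf18 was 1.33-fold higher in male knockouts (0.41 ± 0.14, adjusted p = 0.0466), with single days of 0.06, 0.26, 0.63 and 0.68, and its female effect was 0.19 ± 0.14 (adjusted p = 0.312). Leaving out E12.5, E13.5, E14.5 or E15.5 left 3, 1, 1 and 2 of the male calls, the Mmd2 call being lost each time, and left 0, 0, 0 and 2 of the female calls. Over all genes the male calls were then 5247, 2204, 1568 and 3955, against 5686 with all days. The female calls over all genes were 4660, 1551, 1850 and 4992, against 5610.

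Cst9 was the gene of the 10 with the widest knockout effect in females. It was 2.41-fold higher in female knockouts than in female heterozygotes (log2 1.27 ± 0.63), on 4 of 4 days with no overlap of the groups, as for 6.04% of all genes, but the adjusted p was 0.149. In the fit without the variance trend its SE was 0.12 and the adjusted p 0.000582. The deposited Cst9 ratios of female heterozygotes were 0.01095 to 0.01782, close to the lowest deposited ratio of 0.01. The female effect of Cst9 is thus a difference between very small values. The male effect of Cst9 was 0.63 ± 0.63 (adjusted p = 0.46), and without the trend its SE was 0.12 (adjusted p = 0.00728). That fit also called Ptgds in males (0.53 ± 0.16, adjusted p = 0.038), which gave 6 male and 3 female calls among the 10. Ptgds in females ran the other way on 3 of 4 days (-0.46, adjusted p = 0.699 with the trend and 0.0611 without). Tesc had effects of 0.50 in males and -0.16 in females (adjusted p = 0.623 and 0.89).

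The remaining genes had smaller or inconstant effects. Vnn1 had 0.20 ± 0.09 in males (adjusted p = 0.119) and 0.17 ± 0.09 in females (adjusted p = 0.198), and Erbb4 had 0.17 ± 0.09 (adjusted p = 0.173) and 0.12 ± 0.09 (adjusted p = 0.327). Fgf9 had 0.54 ± 0.24 in males (adjusted p = 0.116). In females it was higher in the knockout at E12.5 and E13.5, by 0.32 and 0.56, and lower at E14.5 and E15.5, by log2 differences of -0.52 and -1.07. A difference between the male and the female knockout effect was called for none of the 10 genes by limma, where 0.874% of all genes were called. Aard alone had an unadjusted p under 0.05 there (difference 0.42 ± 0.11, adjusted p = 0.117).

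The size of these effects has to be read beside what else moved with genotype. The 8 germ cell markers had mean log2 values of -4.03 to -2.92 in male knockouts, against 2.70 to 4.44 in male heterozygotes, and of -3.97 to -2.78 in female knockouts, against 2.01 to 3.54 in female heterozygotes. The 6 Sertoli markers had a median male knockout effect of 0.55, with 3 of 6 called higher, and their mean log2 values were 1.60 to 1.82 in male knockouts, against 1.04 to 1.19 in male heterozygotes. The 4 fetal Leydig markers tested had a median male effect of 0.76 with 2 called higher, and the 5 endothelial markers had 0.50 with 4 called higher. In females the Sertoli, Leydig and endothelial medians were 0.43, 0.61 and 0.37, with 3, 2 and 3 markers called higher. The 6 pre-granulosa markers had medians of 0.31 in males and 0.49 in females, with 2 called higher in each sex. Among erythroid markers 3 of 3 were called higher in female knockouts and 1 of 3 in male knockouts. The 3 macrophage markers tested had medians of 0.35 in males and 0.34 in females, with 1 and 0 called higher. The 3 peritubular and smooth muscle markers had 0.37 and 0.54, with 1 and 2 called higher. The 4 mesonephros markers had 0.18 and 0.55, with none called higher and 1 called lower in males. Male effects of these 4 ranged from -2.66 to 1.42. The part of these cell types in the effects on the 10 genes was not tested. With arrays as deposited none of the 10 genes was called in either sex, and of all genes called the share that was higher was 16.6% in males and 21% in females, where it was 63.3% and 61.8% after scaling to the 75th percentile.

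Receptors and targets of the FGF pathway were compared as companions of Fgf9 and Fgf18. Of 13 genes for FGF receptors, feedback inhibitors and transcriptional targets, 5 were higher and 1 lower in male than in female knockouts, and 6 were higher and 1 lower in heterozygotes. The gene lower in males was Fgfr2, which encodes a receptor for FGF9, by a log2 difference of -2.01 ± 0.25 in knockouts (adjusted p = 0.00056) and -1.81 ± 0.25 in heterozygotes (adjusted p = 0.00127). Its relative signal was 0.427, 0.542, 0.809 and 0.733 in male knockouts, against 3.31, 2.21, 2.34 and 2.11 in female knockouts. Etv5, an ETS factor induced by FGF signalling, was higher in male gonads by 2.01 ± 0.28 in knockouts (adjusted p = 0.000994) and 1.25 ± 0.28 in heterozygotes (adjusted p = 0.0113). Dusp6, a phosphatase that dampens ERK, was higher by 1.20 ± 0.18 in knockouts (adjusted p = 0.00155) and 1.17 ± 0.18 in heterozygotes (adjusted p = 0.00211). At E15.5 Dusp6 read 2.11 in male knockouts against 0.836 in female knockouts. Of 5 other FGF ligands tested, 1 was higher in males in both genotypes: Fgf10, by 2.41 ± 0.19 in knockouts (adjusted p = 4.41e-05) and 2.25 ± 0.19 in heterozygotes (adjusted p = 9.71e-05).

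Among the 8 ERBB receptors and ligands tested beside Erbb4, 2 were higher in males in both genotypes and 1 was lower in males in knockouts. Erbb3, a partner receptor for neuregulins, was higher by 2.92 ± 0.33 in knockouts (adjusted p = 0.00036) and 2.94 ± 0.33 in heterozygotes (adjusted p = 0.000476). The ligand gene Nrg1 was higher by 2.44 ± 0.41 in knockouts (adjusted p = 0.00329) and 2.16 ± 0.41 in heterozygotes (adjusted p = 0.00616). The probe of Btc, which encodes betacellulin, was at the detection limit, 1.13, in all 8 male samples and read 3.65 to 10.5 in female knockouts, so it was at least 5.54-fold lower in male than in female knockouts (adjusted p = 0.0111). Erbb3 was lower in knockouts than in heterozygotes of both sexes, by -1.01 ± 0.18 in males (adjusted p = 0.00509) and -0.99 ± 0.18 in females (adjusted p = 0.00542), whereas no such difference was called for Erbb4.

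**Figure D5:**
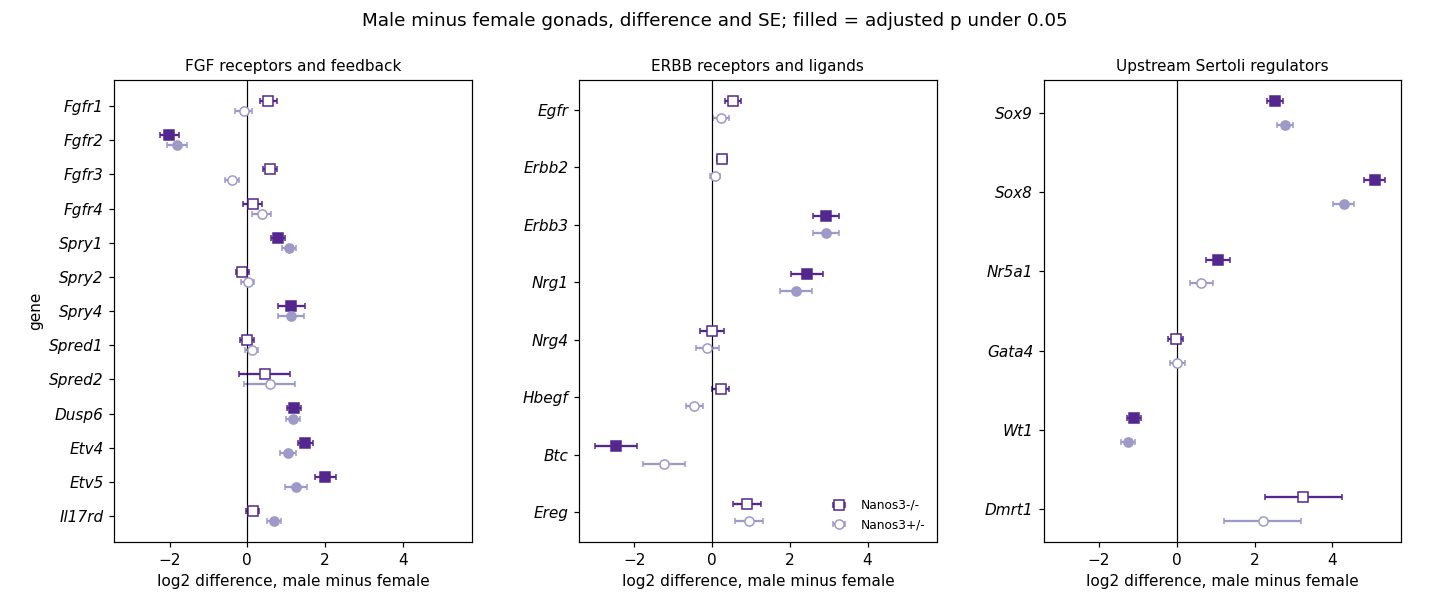
Male minus female log2 difference with its SE in Nanos3-/- (squares) and Nanos3+/- (circles) gonads for 13 FGF pathway genes, 8 ERBB pathway genes and 6 upstream Sertoli regulators, filled where the adjusted p is under 0.05. Fgfr2, Wt1 and Btc, which was at the detection limit in males, lie on the female side, and Sox8, Sox9, Erbb3 and Nrg1 lie furthest to the male side among called genes.

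Upstream of the 10 genes, 6 of 7 regulators were tested. Sox9, the Sertoli transcription factor that binds the Ptgds promoter in mouse, was higher in males by 2.52 ± 0.20 in knockouts (adjusted p = 4.85e-05) and 2.78 ± 0.20 in heterozygotes (adjusted p = 4.35e-05). Its relative Sox8 was higher by 5.09 ± 0.27 (adjusted p = 6.48e-06) and 4.30 ± 0.27 (adjusted p = 2.5e-05). Sox9 was also higher in knockouts than in heterozygotes, by 0.63 ± 0.10 in males (adjusted p = 0.00315) and 0.90 ± 0.10 in females (adjusted p = 0.000733). Female Sox9 stayed between 0.399 and 0.629 in knockouts and between 0.220 and 0.349 in heterozygotes, against 2.42 to 3.66 in male knockouts. Wt1 was lower in males than in females, by -1.10 ± 0.17 in knockouts (adjusted p = 0.00226) and -1.25 ± 0.17 in heterozygotes (adjusted p = 0.00134). In the prostaglandin D2 list, Sox9 apart, none of the other 3 genes tested was called higher in males. Pla2g4a, a phospholipase that frees arachidonic acid, was lower in male than in female heterozygotes (log2 difference -0.49).

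Relatives of the 10 genes did not share their pattern as a group. Of 7 tested, 2 were higher and 1 lower in male gonads in both genotypes. Chp2, a calcineurin homologous protein like tescalcin, was higher by 2.49 ± 0.21 in knockouts (adjusted p = 5.41e-05) and 2.72 ± 0.21 in heterozygotes (adjusted p = 5.1e-05). Cst12, a cystatin-related gene like Cst9, was lower in males by -2.32 ± 0.20 (adjusted p = 6.31e-05) and -1.97 ± 0.20 (adjusted p = 0.000234), the opposite direction to Cst9. Cst3, which encodes cystatin C, was higher by 0.66 ± 0.16 (adjusted p = 0.0173) and 0.55 ± 0.16 (adjusted p = 0.0316).

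Likeness between genes was measured as Pearson's r of log2 values, as a description. Over all 16 samples it mainly reflects the split of the sexes, and the 2 genes most like each of Ptgds and Tesc were Kdm5d, which is Y-linked, and Rasgrf2 (r = 0.99 each). Within the 8 male samples Ptgds and Kdm5d had r = 0.70, and within the 8 female samples -0.18. Some pairs were alike within each sex as well: Fgf18 and Lmnb1 had r = 0.97 over 16 samples, 0.99 in males and 0.92 in females, and Fgf9 and Spata48 had 0.96, 0.94 and 0.91. Vnn1 was closest to Hsd17b3 (0.99 over 16 samples, 0.92 in males and 0.60 in females), and Mmd2 to Igfbp7 (0.99, 0.86 and 0.94). Mro was closest to Gem (0.98, 0.96 and 0.88) and Aard to Smtnl2 (0.98, 0.84 and 0.83), while Cst9 was closest to Kdm5d (0.99, 0.85 and 0.25). Erbb4 was closest to Krtap9-1, with 0.94 over 16 samples but 0.36 in males.

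Among the 10 genes themselves, 36 of 45 pairs had a positive r over the 8 male samples and 26 of 45 over the 8 female samples. In males Ptgds and Cst9 had r = 0.94, Vnn1 and Mmd2 had 0.91, and Fgf9 and Fgf18 had 0.93. Vnn1 and Fgf18, at the other end, had -0.79, as Vnn1 was highest and Fgf18 low at the later days. In females Aard and Mro had 0.93, and Mro and Tesc had -0.89. The samples of a sex share their days and their arrays, so these values describe time courses as well as levels.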

How the data were processed

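Total RNA of whole gonads was labelled with Cy3 and hybridised to 1-colour Agilent arrays, per the labels' protocols. The arrays were read with Agilent Feature Extraction 9.5, per the submitters' processing notes, and any further scaling by the authors is not given in the sources used here. The deposited values are linear ratios of each probe to its typical signal over the samples, as the values show, and none is below 0.01. Probe symbols come from the platform annotation: of 41174 probes, 32664 had 1 symbol, 45 several and 8465 none.

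A detection limit of each sample was recovered from the log2 difference that the most probes shared between it and each other sample (tolerance 2e-04 log2). A probe counted as at the limit in samples that shared its lowest value after those sample limits were subtracted. In each sample, 1554 to 11174 probes lay at the limit. Arrays were scaled to the same 75th percentile over 28373 probes never at it, with shifts of -0.33 to 0.26, and given a common limit per probe. Genes above that limit in at least 4 of 16 samples were kept, each by the probe with the fewest samples at the limit and then the highest mean. After this scaling the median of all genes was higher in knockouts by 0.12 (log2) in males and 0.11 in females, and effects on the 10 genes are to be read relative to it. Log2 values were fitted in limma 3.58.1 (R 4.3.3; lmFit and eBayes with a variance trend), with the day as a block for effects of genotype and sex (6 residual degrees of freedom) and with slopes per day in each group (8), and p-values were adjusted by Benjamini-Hochberg over 16581 genes. Effects of genotype and sex share groups and are not independent of each other.

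Deviations of same-day samples had correlations of 0.516 to 0.713 between male knockouts and heterozygotes, 0.478 to 0.758 between female ones, 0.187 to 0.641 between the sexes in knockouts and 0.297 to 0.482 in heterozygotes. These exceeded the values for other days in 4 of 4 pairs within each sex, but in 3 of 4 between the sexes. At E12.5 the sexes had 0.187 against 0.467 for another day in knockouts, and 0.297 against 0.335 in heterozygotes. The pairing comes from the embryonic day in the labels. All 10 genes are named. Of each list of related genes at most 4 called genes with the largest differences are named, and likeness names the genes with the highest r. The 10 genes, the lists and the tests were chosen with earlier results of these data known. Alternatives covered the scaling, limit, filter, probes, array weights, block, samples fitted and days, and scaling to the median and a fit without the variance trend were added after the data were seen. The procedure was tested on simulated data.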

Additional observations from a re-analysis of the deposited data

Results flagged for a closer look

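The change over embryonic days differed between the sexes for Aard in both genotypes, by a test of the difference itself. The slope of its male minus female difference was -0.76 log2 units per day in knockouts (limma, adjusted p = 0.0481) and -0.75 in heterozygotes (adjusted p = 0.0262), and the difference was smaller at E15.5 than at E12.5 in both. Of 13 alternative settings, 5 kept the call for Aard in knockouts and 8 kept it in heterozygotes. The settings that lost it include the omission of single days, most of which left few or no genes called, as given above. For Fgf9 the slope of the male minus female difference was -1.41 in heterozygotes (adjusted p = 0.0181), and on its other probe it was -0.93 (adjusted p = 0.088). No sample stood apart from the other 3 of its group by Dixon's test in the 40 groups of values tested. With 4 values per group, each from a different day, that test finds only extreme departures. It also cannot separate them from a change over days, so its outcome says little about single samples.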

How the results depend on the processing

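With the 10 genes taken 1 by 1, 1356 of the 1542 values recomputed kept their direction and their side of the threshold, 96 lost a call, 36 gained one and 54 changed sign, none of them called in the analysis given above. For the 10 genes, arrays as deposited gave 0 calls for the male knockout effect, 0 calls for the female knockout effect, 0 calls for the slope in male knockouts, 1 call for the slope in male heterozygotes, 1 call for the slope in female knockouts and 1 call for the slope of the sex difference in heterozygotes. Over all genes, arrays as deposited gave 1934 calls for the male and 2301 for the female knockout effect, against 5686 and 5610 after scaling to the 75th percentile; with arrays scaled to the same median, 51.8% and 56.2% of calls were higher. Arrays scaled to the same median gave 2 calls for the male knockout effect. No replicate block gave 0 calls for the male knockout effect and 0 calls for the female knockout effect. A fit of only the groups compared gave 1 call for the female knockout effect. No filter gave 0 calls for the slope in male knockouts and 0 calls for the slope of the sex difference in knockouts. Array weights gave 5 calls for the slope in male knockouts, 3 calls for the slope in female knockouts and 3 calls for the slope of the sex difference in knockouts, while the calls over all genes were 5148, 4966 and 2986, against 965, 557 and 147 without weights. Mean of all probes gave 1 call for the slope in female knockouts. Quantile normalization gave 0 calls for the slope of the sex difference in knockouts and 1 call for the slope of the sex difference in heterozygotes. No variance trend gave 0 calls for the slope of the sex difference in knockouts. Each probe tested on its own gave 0 calls for the slope of the sex difference in knockouts. Leaving out 1 day at a time gave 1 to 3 calls for the male knockout effect, 0 to 2 calls for the female knockout effect, 0 to 1 call for the slope in male knockouts, 0 to 2 calls for the slope in male heterozygotes, 0 to 2 calls for the slope in female heterozygotes, 0 calls each time (0 to 0) for the slope of the sex difference in knockouts and 0 to 1 call for the slope of the sex difference in heterozygotes. Over all genes, the same omissions gave 1568 to 5247 calls for the male and 1551 to 4992 for the female knockout effect. For slopes they gave 0 to 1126 in male knockouts, 261 to 2821 in male heterozygotes and 47 to 1289 in female heterozygotes. For the slope of the sex difference they gave 0 to 160 in knockouts and 0 to 336 in heterozygotes. The sign turned under arrays as deposited for Aard in the female knockout effect (-0.068), Cst9 in the slope in male knockouts (-0.072), Erbb4 in the slope in male knockouts (-0.0512), Ptgds in the slope in male heterozygotes (0.11), Cst9 in the slope in male heterozygotes (0.052), Tesc in the slope in male heterozygotes (0.10), Erbb4 in the slope in male heterozygotes (0.10), Cst9 in the slope in female heterozygotes (0.009) and Mmd2 in the slope of the sex difference in knockouts (-0.10). The sign turned under quantile normalization for Tesc in the female knockout effect (0.35), Erbb4 in the male minus female knockout effect (-6e-04), Erbb4 in the slope in male heterozygotes (0.0206), Vnn1 in the slope in female knockouts (-0.0152), Vnn1 in the slope of the sex difference in heterozygotes (-0.0347) and Erbb4 in the slope of the sex difference in heterozygotes (0.0148). The sign turned under the other Fgf9 probe for Fgf9 in the female knockout effect (0.10). The sign turned under mean of all probes for Erbb4 in the male minus female knockout effect (-0.0868), Erbb4 in the slope in female knockouts (-0.0053) and Erbb4 in the slope of the sex difference in knockouts (0.0056). The sign turned under array weights for Mmd2 in the male minus female knockout effect (0.0396), Cst9 in the slope in male knockouts (-0.0431), Ptgds in the slope in male heterozygotes (0.0034) and Vnn1 in the slope in female knockouts (-0.0473). The sign turned under arrays scaled to the same median for Cst9 in the slope in male knockouts (-0.0108), Ptgds in the slope in male heterozygotes (0.004), Erbb4 in the slope in male heterozygotes (0.0013) and Vnn1 in the slope in female knockouts (-0.0088). When 1 day was left out, the sign turned for Fgf9 (-0.42 to 0.12) in the female knockout effect, Mmd2 (-0.34 to 0.26), Erbb4 (-0.0123 to 0.11) and Vnn1 (-0.0406 to 0.18) in the male minus female knockout effect, Ptgds (-0.032 to 0.18), Cst9 (-0.0745 to 0.0481) and Erbb4 (-0.003 to 0.073) in the slope in male knockouts, Tesc (-0.10 to 0.085), Erbb4 (-0.0522 to 0.0209) and Ptgds (-0.12 to 0.0168) in the slope in male heterozygotes, Erbb4 (-0.20 to 0.30), Fgf9 (-0.30 to 0.15) and Vnn1 (-0.11 to 0.27) in the slope in female knockouts, Cst9 (-0.21 to 0.21) and Erbb4 (-0.23 to 0.12) in the slope in female heterozygotes, Erbb4 (-0.23 to 0.19), Fgf18 (-0.86 to 0.0189), Mmd2 (-0.0432 to 0.18) and Ptgds (-0.32 to 0.0746) in the slope of the sex difference in knockouts and Cst9 (-0.35 to 0.17), Vnn1 (-0.0685 to 0.10) and Erbb4 (-0.18 to 0.25) in the slope of the sex difference in heterozygotes, as lowest to highest value. The cause of these changes was not tested. Same-numbered samples share an embryonic day; without the day as a replicate block the male effects of Aard, Mro, Mmd2 and Fgf18 had adjusted p-values of 0.481, 0.484, 0.388 and 0.752. The number of samples, 4 days in a group, limits the precision of every value.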
